A study of Mus musculus with 4 samples.

Results

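The levels of mmu-miR-34a and mmu-miR-34c, called miR-34a and miR-34c here, were followed across 4 mouse hepatocarcinoma cell lines on a miRCURY array, which captures small RNAs on probes of locked nucleic acid. They were taken by name from the probe annotation, which gave 3 probes, 1 for miR-34a and 2 for miR-34c, of 417 probes for mouse miRNAs; by name these are 2 of 414 miRNAs. The lines were Hca-F, a suspension line with higher lymphatic metastasis ability, Hca-P, a suspension line with lower ability, H22, a suspension line with none, and Hepa1-6, an adherent line with none. According to the sample annotation H22 is the parent of Hca-F and Hca-P. Cells of these daughter lines grew in the abdominal cavity of 615 mice, were collected from ascites and were then cultured in RPMI-1640, Hepa1-6 was grown in DMEM, and no line was treated. Each line was read once, so no difference between a pair of lines has a replicate check, and values written with ± are SDs over the 4 spots of a probe on 1 array.

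miR-34 genes are among the best known miRNA targets of the transcription factor p53. In human and mouse cells p53 binds their promoters and raises their transcription after DNA damage, and the mature miRNAs lower cell cycle and survival regulators such as CDK6, BCL2 and MET. miR-34a comes from a gene of its own and is found in most tissues. miR-34b and miR-34c share a transcript, which is most abundant in testis, lung and other tissues with ciliated cells. miR-449 miRNAs carry the same seed, the bases that pair with target mRNAs, and are also abundant in ciliated cells.

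The probes of the array for this seed family named miR-34a, miR-34b-5p, miR-34c, miR-449a and miR-449c. The sequences are shown because the miRNAs share their seed and differ downstream of it, which is where probes can tell them apart. Capitals mark the seed, bases 2 to 8 of the mature miRNA, which is identical in all of those shown. For miR-34c the hairpin is given, and the capitals mark the place where the same 7 letters occur in it. Sequences are from RefSeq, on build GRCm38.p6.
miR-34a-5p: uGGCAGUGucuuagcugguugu
miR-34b-5p: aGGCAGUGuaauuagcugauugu
miR-449a-5p: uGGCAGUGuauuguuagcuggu
miR-449c-5p: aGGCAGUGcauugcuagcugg
Mir34c hairpin: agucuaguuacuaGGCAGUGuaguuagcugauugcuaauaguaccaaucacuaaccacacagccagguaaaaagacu

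Counted from base 1 without gaps, miR-34a-5p and miR-34b-5p had the same base at 11 of 22 positions, and 10 of the unequal positions lay after the seed. miR-34a-5p and miR-449a-5p matched at 15 of 22 positions. With the seeds aligned, again without gaps, miR-34b-5p matched the Mir34c hairpin at 21 of 23 positions and miR-34a-5p matched it at 11 of 22. A stretch shared at another offset is mostly counted as unequal. An example is uuagcug, which miR-34a-5p shares with miR-34b-5p and the Mir34c hairpin. These counts can therefore understate how alike miR-34a and miR-34c are. The Mir34a hairpin lies on the plus strand at chr4:150068454-150068555, and no other annotated gene overlaps it. Mir34c, at chr9:51103034-51103110, and Mir34b, at chr9:51103562-51103645, lie on the minus strand 451 bases apart, within the spans of the genes Hoatz and Btg4. Mir449a and Mir449c lie on chromosome 13 within the span of Cdc20b.

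miR-34a was above the detection minimum of 50 intensity units in every line. Its 4 background-subtracted spots read 365, 359, 380 and 288 units in Hca-F, 183, 225, 222 and 186 units in Hca-P, 442, 416, 508 and 548 units in H22, and 670, 869, 784 and 901 units in Hepa1-6. The raw spot values of the lines did not overlap. Divided by the median of 65 reference probes in each array, so that 1 is the intensity of the median reference probe, the level of miR-34a was 1.07 ± 0.126 in Hca-F, 0.515 ± 0.0570 in Hca-P, 1.30 ± 0.165 in H22 and 2.0 ± 0.256 in Hepa1-6. Hepa1-6 was the highest line and Hca-P the lowest, and the levels did not follow the labelled order of metastasis ability among the suspension lines, since Hca-F lay above Hca-P and near H22. Among neighbours in this order, H22 lay 2.28 combined spot SDs under Hepa1-6 and Hca-F lay 4.03 combined spot SDs above Hca-P, with no overlap of spot levels in either case. Hca-F and H22 were 1.12 combined spot SDs apart with overlapping spot levels, so they cannot be ordered.

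**Figure D1:**
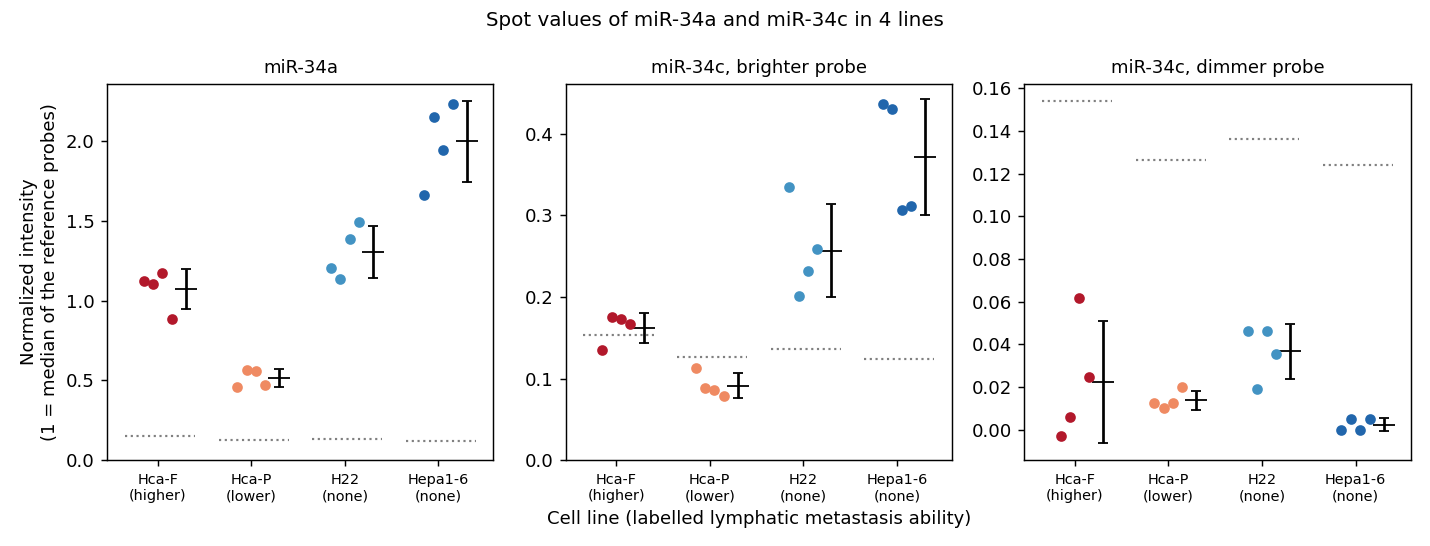
Normalized intensity of each of the 4 spots (points) of miR-34a and of both miR-34c probes in each line, with the mean and SD over spots (bar) and the level that corresponds to 50 intensity units in that array (dotted line). The vertical axes differ between panels. miR-34a and the brighter miR-34c probe were lowest in Hca-P and highest in Hepa1-6, and the dimmer miR-34c probe stayed under the dotted line in every line.

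Hca-P carried less miR-34a than each of the other lines. The level was 0.515 in Hca-P against 1.30 in H22, the line it derives from, a log2 fold of -1.34 ± 0.24 (combined spot SD), or 2.53-fold lower. All spots were lower in Hca-P when paired by position, with log2 folds of -1.67 to -1.0. Of 98 miRNAs measured in this pair, 50.0% were at least 2-fold apart, 15.3% higher in Hca-P and 34.7% lower, with a median log2 fold of -0.62 over all of them. The fold of miR-34a therefore went the way of most miRNAs in this pair, and 18 of the 98 had a lower fold.

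Against Hepa1-6, miR-34a was at 0.515 in Hca-P and 2.0 in Hepa1-6, a log2 fold of -1.96 ± 0.24, or 3.88-fold lower. Here the median over 89 measured miRNAs was 0.07, and 4 of them had a lower fold than miR-34a. At least 2-fold differences were seen in 56.2% of miRNAs, with 31.5% higher in Hca-P and 24.7% lower.

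Hca-F carried more miR-34a than Hca-P, the line of lower metastasis ability. The level was 1.07 in Hca-F against 0.515 in Hca-P, a log2 fold of 1.06 ± 0.23, or 2.08-fold higher, and each of the 4 spots was higher, by 0.92 to 1.28 on the log2 scale. Of 85 miRNAs, 36.5% were at least 2-fold apart, with 23.5% higher in Hca-F and 12.9% lower. Their median log2 fold was 0.45, so the position of miR-34a relative to the other miRNAs was 0.61, and 14 miRNAs had a higher fold. The log2 fold was under 2-fold with quantile normalization (0.88), without scaling (0.77), with every capture probe in the scaling (0.60) and with normexp background correction (0.89), and its direction held in these and in the other alternatives that gave another value.

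Hca-F against H22 gave a log2 fold of -0.28 ± 0.25, 1.22-fold lower, for miR-34a levels of 1.07 and 1.30. In this pair 32.6% of 95 miRNAs were at least 2-fold apart, with 14.7% higher in Hca-F and 17.9% lower. Hca-F against Hepa1-6 gave a log2 fold of -0.90 ± 0.25 for miR-34a, 1.86-fold lower, at levels of 1.07 and 2.0. The median over 81 miRNAs was 0.40, the opposite sign. At least 2-fold differences were seen in 37.0% of miRNAs, with 27.2% higher in Hca-F and 9.88% lower, and 9 miRNAs had a lower fold than miR-34a.

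H22 against Hepa1-6, the pair with no lymphatic metastasis, gave a log2 fold of -0.61 ± 0.26 for miR-34a, 1.53-fold lower in H22, at levels of 1.30 and 2.0. All 4 spots were lower in H22, with log2 folds of -0.93 to -0.46. Of 92 miRNAs in this pair, 37.0% were at least 2-fold apart, with 33.7% higher in H22 and 3.26% lower, and 14 had a lower fold than miR-34a. Over the 6 pairs, miR-34a was 2-fold or more apart in 3 pairs, each of which includes Hca-P, and beyond 2 combined spot SDs in 5. Hca-F over Hepa1-6 reached 2-fold in 4 of 10 alternatives and H22 over Hepa1-6 in 1. Pairs that share a line share its array, so they are not separate measurements of miR-34a.

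**Figure D2:**
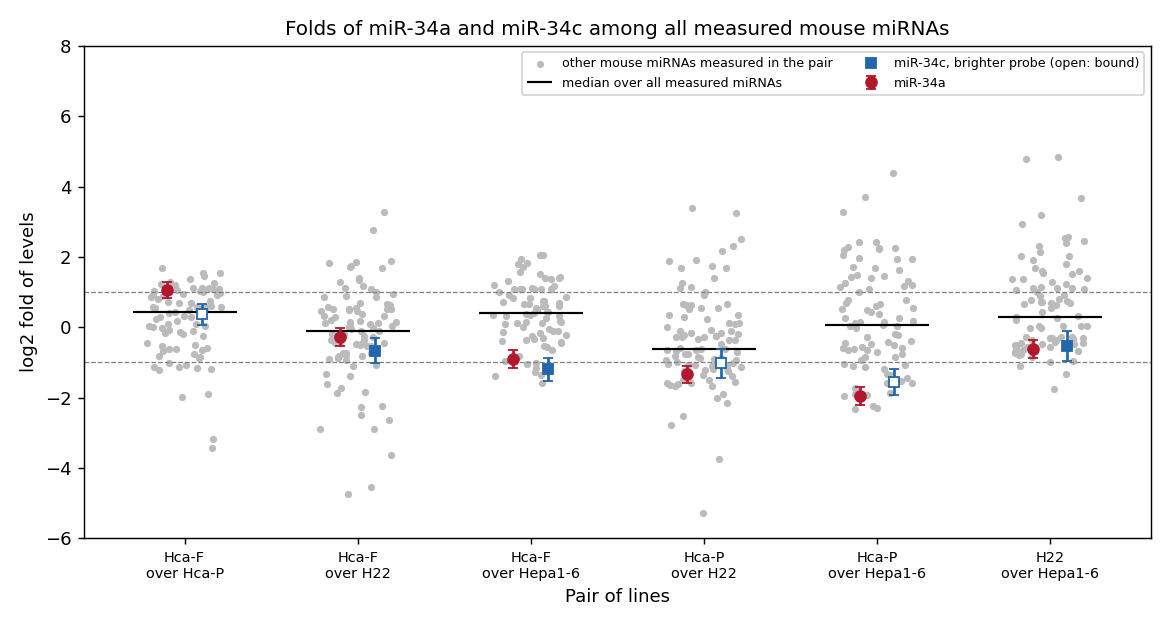
log2 folds of levels in the 6 pairs of lines for miR-34a (circles) and the brighter miR-34c probe (squares, open where 1 line was under the detection minimum and the fold is a bound), with bars of 1 combined spot SD. Grey points are the other mouse miRNAs measured in each pair, black lines the median over all measured miRNAs, and dashed lines a 2-fold difference. miR-34a lies above the median in Hca-F over Hca-P and under it in the other 5 pairs, most in Hca-P over Hepa1-6 and least in Hca-F over H22.

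miR-34c was read by 2 probes, 1 of which stayed under the detection minimum in every line. The brighter one read 44, 57, 56 and 54 units in Hca-F, 45, 35, 34 and 31 units in Hca-P, 123, 74, 85 and 95 units in H22, and 176, 174, 124 and 126 units in Hepa1-6. All spots in H22 and Hepa1-6 and 3 of 4 in Hca-F reached 50 units, and none did in Hca-P. Its level was 0.163 ± 0.0184 in Hca-F, 0.0915 ± 0.0153 in Hca-P, 0.257 ± 0.0572 in H22 and 0.372 ± 0.0716 in Hepa1-6, the same order over lines as miR-34a. Neighbours in this order were not all apart: H22 lay 1.25 combined spot SDs under Hepa1-6 with overlapping spot levels, Hca-F lay 1.57 under H22, and Hca-F lay 2.97 above Hca-P, where raw spots of 44 units in Hca-F and 45 units in Hca-P overlapped.

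In Hca-P the brighter probe was under the detection minimum, and its value was set to 50 units for the folds. Hca-P was then at least 2.04-fold lower than H22 (log2 -1.03) and at least 2.94-fold lower than Hepa1-6 (log2 -1.56). The log2 fold of Hca-F over Hca-P was a bound of 0.37, which turned to -0.09 when all capture probes set the scaling, since the measured 52.8 units of Hca-F lie close to the minimum. Hca-F was 2.29-fold lower than Hepa1-6, with a log2 fold of -1.19 ± 0.32 at levels of 0.163 and 0.372. Hca-F against H22 gave -0.66 ± 0.36 and H22 against Hepa1-6 gave -0.53 ± 0.42 on the log2 scale. miR-34c was thus 2-fold or more apart in 3 of 6 pairs, 2 of them as bounds. In Hca-P over H22, 34.7% of 98 miRNAs were at least 2-fold lower, and 32 had a lower fold than the miR-34c bound. In Hca-P over Hepa1-6 this was 24.7% of 89, with 11 under the bound. Hca-F over Hepa1-6 had 9.88% of 81, with 4 under the fold of miR-34c. The miR-34c value was under 2-fold in 5 of 9 alternatives for Hca-P over H22, and in 2 of 10 each for Hca-P and Hca-F over Hepa1-6. All of these values were bounds except that of Hca-F over Hepa1-6 with normexp. A bound under 2-fold does not show that the difference itself was under 2-fold.

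The dimmer miR-34c probe stayed under the detection minimum in every line. It read -1, 2, 20 and 8 units over its spots in Hca-F and 4 to 8 units in Hca-P, against 7 to 17 units in H22 and 0 to 2 units in Hepa1-6. Negative control probes, 7 on the array, averaged 0.5 to 8 units in Hca-F, 5 to 6.75 in Hca-P, 4.5 to 8 in H22 and 0 to 2.75 in Hepa1-6. The dimmer probe averaged 7.25 units in Hca-F, 5.5 in Hca-P and 1 in Hepa1-6, all within the range of the controls, and 13.5 units in H22, above it. With 3 of 4 lines in the range of the controls, no order of lines is read from it.

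The folds of miR-34c by the brighter probe had the same sign as those of miR-34a in every pair of lines, although the pairs share 4 arrays and are not separate checks. Taken on measured values without the floor, which includes Hca-P values under the detection minimum, the log2 fold of Hca-P over Hepa1-6 was -2.02 for miR-34c and -1.96 for miR-34a, and that of Hca-P over H22 was -1.49 and -1.34. Hca-F over Hca-P gave 0.83 for miR-34c and 1.06 for miR-34a. The difference of the paired folds, which a factor common to an array leaves unchanged, was 0.07 to 0.38 in size on the log2 scale and smaller than 1 combined SD in all 6 pairs. These SDs were 0.37 to 0.50, so differences of that size could not be told from spot noise. With spots paired by position the difference was smaller than 1 SD in 5 pairs, while in Hca-P over H22 the difference of -0.15 exceeded the SD of 0.062. Quantile normalization, which is not a common factor, moved the folds apart in other ways, with -0.23 for miR-34c and -0.57 for miR-34a in Hca-F over H22. The dimmer miR-34c probe did not share this likeness, with 1 unit in Hepa1-6, where the brighter averaged 150 units, and 13.5 units in H22. miR-34b-5p, of the same transcript, averaged 37.5 units in H22 and 3 in Hepa1-6, both under the detection minimum. The likeness to miR-34a therefore holds for the brighter probe alone. The probes' own sequences were not used here, and whether the brighter probe also captured miR-34a was not tested.

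The other miRNAs of the seed family were under the detection minimum in all lines. miR-34b-5p, which shares the transcript of miR-34c, read 36, 39, 28 and 47 units in H22, a mean of 37.5 ± 7.85, where the highest of 7 negative controls was 8 units and the highest of 85 empty positions was 3. It averaged 1 unit in Hca-F, 3.75 in Hca-P and 3 in Hepa1-6 and its mean was above the highest control only in Hepa1-6 among these (3 against 2.75 units). No spot of miR-34b-5p was above 6 units in Hca-F and Hca-P, the daughter lines of H22. miR-449a averaged 5.25 units in Hca-F, 8.75 in Hca-P, 13.8 in H22 and 21 in Hepa1-6. Its mean was above the highest control in Hca-P (6.75 units), H22 (8) and Hepa1-6 (2.75), but not in Hca-F (8). miR-449c stayed between 0.75 and 6.25 units, within the range of the controls in each line. With values this low, no fold is given.

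**Figure D3:**
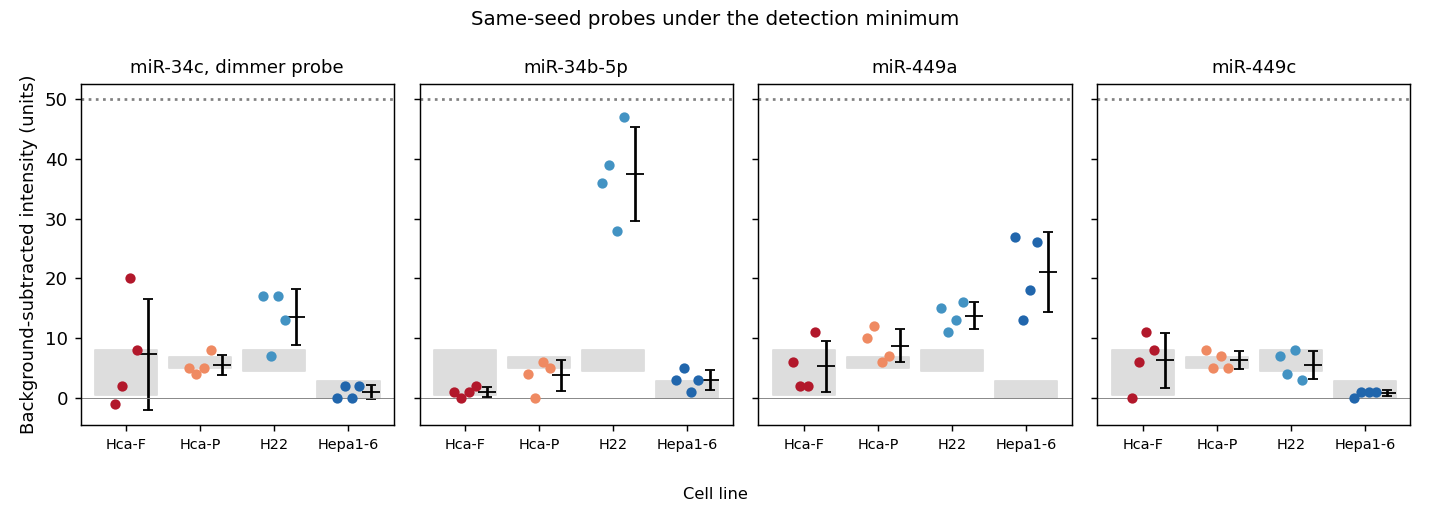
Background-subtracted intensity of each of 4 spots (points) for same-seed probes that stayed under 50 units (dotted line), with the mean and SD over spots (bar). Grey bands span the means of the 7 negative control probes in each line. miR-34b-5p in H22 stands well above its band at 28 to 47 units, and is within 6 units of 0 in the other lines. The mean of miR-449a lies above its band in Hca-P, H22 and Hepa1-6.

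The profile of miR-34a over the lines was set beside those of other miRNAs. Likeness was measured as the root mean square difference of log2 levels, each centred on its own mean over the 4 lines, among 53 other miRNAs measured in all of them. The closest were miR-329 (0.0980), the probe shared by miR-467a* and miR-467d* (0.130), miR-467b* (0.132), miR-669a (0.165) and miR-206 (0.207), against a median of 0.702. miR-329, of the imprinted Dlk1-Dio3 locus, was at 0.821 ± 0.211 in Hca-F, 0.385 ± 0.118 in Hca-P, 1.12 ± 0.323 in H22 and 1.43 ± 0.376 in Hepa1-6. miR-206, known as a muscle miRNA, had levels of 0.975 ± 0.112 (Hca-F), 0.496 ± 0.0171 (Hca-P), 0.903 ± 0.295 (H22) and 1.43 ± 0.395 (Hepa1-6). The brighter miR-34c probe lay at 0.141 on this measure, which 3 of the 53 undercut. With 4 arrays this likeness rests on 4 points per miRNA, and in 4 of the 53 the levels ran in the same order as in miR-34a. A low level in Hca-P was not particular to these miRNAs. Of the miRNAs measured in each pair, 34.7% were at least 2-fold lower in Hca-P than in H22, and 24.7% than in Hepa1-6. How many of the 53 were lowest in Hca-P was not counted.

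**Figure D4:**
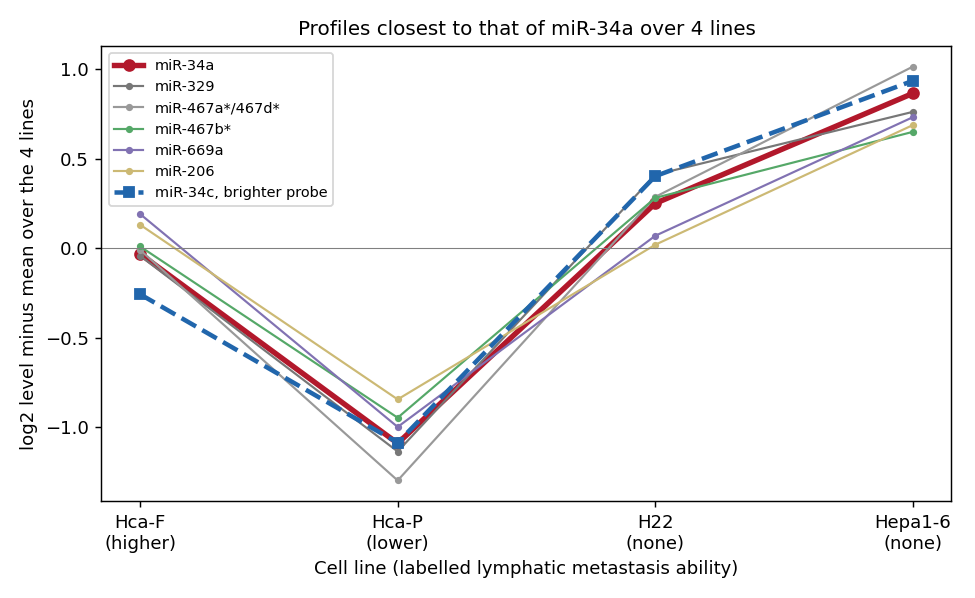
log2 levels, centred on each miRNA's mean over the 4 lines, of miR-34a, the brighter miR-34c probe (drawn without the floor) and the 5 miRNAs closest to miR-34a. All 7 were lowest in Hca-P and highest in Hepa1-6.

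Lines with and without lymphatic metastasis were then compared, as the series title asks, with Hca-F and Hca-P against H22 and Hepa1-6 in limma over the 103 miRNAs measured in at least 1 line. The mean log2 level of miR-34a was -0.43 in lines with metastasis and 0.69 in lines without, a difference of -1.12 (SE 0.79, 95% interval -2.67 to 0.44, limma adjusted p = 0.651). miR-34c, by its brighter probe, averaged -2.80 in lines with metastasis and -1.69 in lines without on the log2 scale, a difference of -1.11 (SE 0.74, 95% interval -2.57 to 0.35, limma adjusted p = 0.651). Hca-P enters this mean at the floor of 50 units, and the difference was -1.34 with a minimum of 30 and -0.19 with one of 100. The means of both lines with metastasis were under those of both lines without in either miRNA, although Hca-F and H22 cannot be ordered for miR-34a, and neither passed the threshold of 0.05, which 1.94% of the 103 miRNAs did. By unadjusted p, miR-34a was number 22 and miR-34c number 17 among the 103. The intervals reach from over 2 log2 units lower to higher in lines with metastasis. The lines are not independent, since 3 of them share a descent. Deviations of spots from their probe mean correlated at 0.758 between Hca-F and Hca-P and 0.657 between H22 and Hepa1-6, over 78 and 79 probes, against 0.144 to 0.167 in the other pairs of arrays, so the arrays fall into pairs that coincide with metastasis, and array pair and metastasis class cannot be told apart. These correlations run over spots of the same probes and are given as a description.

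Further miRNAs linked to p53 were set beside miR-34a. Of 11 probes for further miRNAs raised or processed more under p53, 2 were measured in any line. miR-22, reported as a p53 target in human cells, was at 138.5 ± 10.6 units in Hca-P and 271 ± 45.9 units in H22, and under the minimum in Hca-F and Hepa1-6 at 26.2 and 22 units. Its level was 2.11-fold lower in Hca-P than in H22, like miR-34a, but at least 2.82-fold higher in Hca-P than in Hepa1-6, where miR-34a was lower. miR-16, whose maturation p53 favours in human cells, was measured in H22 (98.2 ± 16.1 units). The limma log2 difference between lines with and without metastasis was -0.38 for each, and neither passed the threshold. miR-16 entered through H22 alone, with every other line set to the floor. miR-22 was set to the floor in Hca-F and Hepa1-6. These differences therefore depend on the floor, and no conclusion on metastasis is drawn from them.

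miR-17-92 miRNAs, which p53 represses in human cells under low oxygen, were measured for 4 of 6 members. miR-17 was at a level of 0.515 ± 0.0811 in Hca-F, 1.21 ± 0.0831 in Hca-P and 0.326 ± 0.0701 in H22, and under the minimum in Hepa1-6. Its highest line, Hca-P, was the lowest for miR-34a. The log2 fold of miR-17 was -1.23 in Hca-F over Hca-P and 1.88 in Hca-P over H22. miR-20a gave -1.02 and 0.93 in the same pairs, within 2 combined spot SDs in each. miR-18a and miR-19b reached the minimum in Hca-P alone and entered through that line, so their folds are bounds and no count or median over the 4 is given. The limma difference of miR-17 was 1.97 with an adjusted p of 0.651. Of 6 miRNAs that target p53, miR-125b-5p was measured, in H22 alone (108 ± 22.4 units). p53 itself and its mRNA targets were not measured.

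Of 414 miRNAs, 71 to 87 reached the detection minimum in a line. None of 4 hepatocyte miRNAs was measured in any line, and miR-122, the defining one, reached at most 33 units. This does not show absence, since in Hepa1-6 miR-122 (33 units) and miR-194 (39) were above the highest negative control of 2.75 units. miR-192 (1.25) and miR-148a (1.75) were not. Among 6 leukocyte miRNAs, 1 reached the minimum, miR-142-5p in Hca-P at 59.2 ± 31.5 units. The summed level of these 6 was 0.256 in Hca-F, 0.351 in Hca-P, 0.232 in H22 and 0.0390 in Hepa1-6. Nearly all of its terms are under the detection minimum, so the lines are not ordered by it, and the part of these miRNAs in the level of miR-34a was not tested. Erythroid, endothelial and epithelial miRNAs, 2, 2 and 4 on the array, stayed under the minimum, and among 5 mesenchymal ones miR-214 reached it, in each line except Hca-P. Of the epithelial ones in Hepa1-6, miR-200b (47.5 units) and miR-449a (21) were above the highest control, and miR-200c (2.75) and miR-141 (1.5) were not. The summed level of the mesenchymal miRNAs was 0.354 in Hca-F, 0.156 in Hca-P, 0.266 in H22 and 0.271 in Hepa1-6. miR-214 carried these differences, with 87.5 units in Hca-F, 27.5 in Hca-P, 70.5 in H22 and 97.5 in Hepa1-6, and the other 4 read at most 11.5 units. Their part in the level of miR-34a was not tested either.

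**Figure D5:**
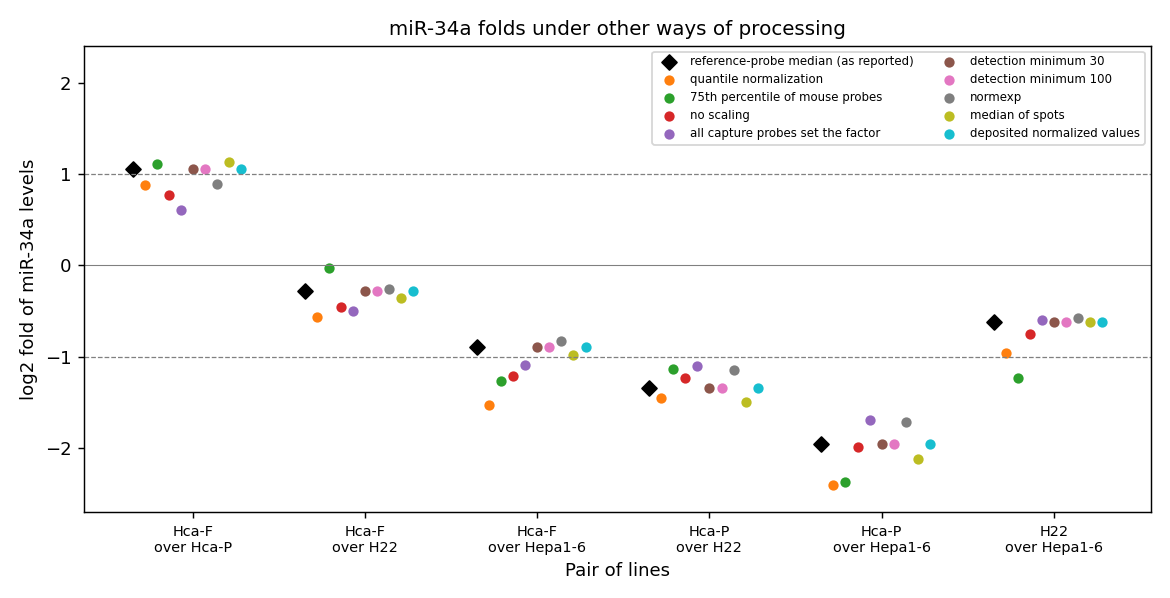
log2 folds of miR-34a in the 6 pairs of lines as reported (black diamonds) and under 9 other ways of processing (coloured circles), 3 of which leave these folds as reported, with dashed lines at a 2-fold difference. No fold changed sign, and Hca-P stayed 2-fold or more lower than H22 and Hepa1-6 under all of them.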

How the data were processed

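Total RNA of 4 lines was labelled with Hy3 and scanned on a GenePix 4000B, per the labels. The authors deposited intensity values of each spot, before and after local background subtraction, and a normalized intensity of each probe. Per the labels, replicate spots were averaged and each array was divided by its median over miRNAs at 50 or more in all samples. The 4 spots gave back the deposited probe values, and the factors were 324.5 in Hca-F, 396.25 in Hca-P, 367 in H22 and 403.75 in Hepa1-6, over 65 probes annotated to mouse miRNAs or to the manufacturer's miRPlus entries. The release of the authors' probe annotation was not stated in the labels or headers, and the printed sequences and positions are RefSeq's on GRCm38.p6. Values under 50 units were set to 50 before scaling, so a fold against them is a bound. A pair of lines has 1 array each and no test. A difference of 2-fold was counted, and the combined spot SD joins the SDs of both arrays. Where names repeat, the brighter probe enters counts over all miRNAs, while both miR-34c probes are given. Lines with and without metastasis were compared with limma 3.58.1 (lmFit and eBayes with trend, Benjamini-Hochberg adjustment). The code was run on simulated data without a floor or array pairs, with larger differences than those of miR-34a and miR-34c. That run checks the code and does not show how often a difference of their size would be found. The p-values and intervals rest on the spread between only 4 arrays, each of a different line, and not on replicates of a line. With lines of shared descent and array pairs that coincide with the classes, they do not test metastasis on its own. The members and lists were chosen with earlier results of these data known. Named miRNAs are both members in full, other same-seed probes, measured members of the lists, and the 5 closest profiles. miR-122 is named as the defining hepatocyte marker, and miR-320 and miR-762 were named after their values were seen. Alternatives covered scaling, detection minimum, background, spot summary, spots paired by position, the deposited normalized values and each line left out.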

Additional observations from a re-analysis of the deposited data

How the results depend on the processing

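Of 10 alternatives for the folds, 3 (minimums of 30 and 100, and the deposited normalized values) leave those of miR-34a as they are. In the other 7, Hepa1-6 stayed highest and Hca-P lowest. Hca-F stayed under H22 by sign only, since these lines cannot be ordered. The log2 folds of Hca-P over H22 (-1.49 to -1.10) and over Hepa1-6 (-2.41 to -1.69) stayed beyond 2-fold in each of the 7. With quantile normalization the miR-34a log2 fold was -0.57 in Hca-F over H22, -1.52 in Hca-F over Hepa1-6, -2.41 in Hca-P over Hepa1-6 and -0.95 in H22 over Hepa1-6. Scaled to the 75th percentile, Hca-F over H22 was -0.028, Hca-F over Hepa1-6 -1.26, Hca-P over Hepa1-6 -2.37 and H22 over Hepa1-6 -1.23. Without scaling Hca-F over Hca-P was 0.77 and Hca-F over Hepa1-6 -1.21, and scaling on every capture probe gave Hca-F over Hca-P 0.60 and Hca-P over Hepa1-6 -1.69. Scaling moved the median of all miRNAs (-0.0099 to 0.50 in Hca-F over Hca-P, -0.31 to 0.33 in H22 over Hepa1-6). Per-array factors cancel in the miR-34a fold minus median. Quantile normalization moved it from 0.61 to 0.66 in Hca-F over Hca-P and from -2.02 to -1.92 in Hca-P over Hepa1-6.

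miR-34c lies near the detection minimum and moved more. Its folds with Hca-P are bounds, except with a minimum of 30 or with spots paired by position. With quantile normalization its log2 fold was -0.23 in Hca-F over H22, -0.44 in Hca-P over H22 and -1.24 in H22 over Hepa1-6. With the 75th percentile it was -1.56 in Hca-F over Hepa1-6, -1.97 in Hca-P over Hepa1-6 and -1.15 in H22 over Hepa1-6. With a minimum of 30, where Hca-P counts as measured, Hca-F over Hca-P was 0.83, Hca-P over H22 -1.49 and Hca-P over Hepa1-6 -2.02, and with spots paired by position these were 0.84, -1.48 and -2.02. With a minimum of 100, where Hepa1-6 alone counts as measured, Hca-F over Hepa1-6 was a bound of -0.27 and Hca-P over Hepa1-6 one of -0.56, and pairs without Hepa1-6 gave no value. With normexp and an offset of 50, Hca-F over Hepa1-6 was -0.66 and Hca-P over Hepa1-6 -1.0. With all capture probes Hca-F over Hca-P turned to -0.093. The dimmer miR-34c probe gave no fold under any minimum.

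Neither miRNA passed limma's adjusted threshold in any of 14 alternatives (adjusted p 0.470 to 0.994 for miR-34a and 0.552 to 0.994 for miR-34c). Over all 103 miRNAs 2 passed, miR-320 and miR-762, with 6 at an unadjusted p under 0.05, and 0 to 3 passed in the alternatives, 0 without Hca-F, Hca-P or H22. Leaving out 1 line gave differences of -1.65 to -0.59 for miR-34a, the smallest without Hca-P, and -1.38 to -0.84 for miR-34c, with the lone line of a class assumed to vary like the other class. No paired analysis was possible because each line has 1 array and the labels give no replicate numbers.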
